A study of Mus musculus with 2 samples.

Results

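The Zfp genes compared here are the mouse genes whose symbol is Zfp followed by a number, Zfp42 excepted. Of 332 such genes in the transcript table, 295 were kept because the FPKM of their transcripts summed to at least 1 in at least 1 library and none of their transcripts failed. FPKM counts sequenced fragments per kilobase of transcript, scaled to the size of the library. The 295 genes were among 13293 genes measured by the same limit. They were compared between 2 RNA libraries from mouse retina at postnatal day 15. The triple mutant library came from retinas with flox/flox alleles of Dnmt1, Dnmt3a and Dnmt3b and with the Rx-Cre transgene, and its strain label reads C57BL/7. The control library came from retinas with the same flox/flox alleles and no Rx-Cre, and its strain label reads C57BL/6. Rx-Cre places the Cre recombinase under regulatory sequence of Rx, a gene of the early eye field and of parts of the forebrain. There was 1 library for each genotype, and the sources used here do not give the number of animals behind each. Every difference below is therefore a difference between 2 libraries, with no replicate check and no test. The genes were chosen by their FPKM in these same libraries, so their values are descriptions.

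Zinc finger proteins of the C2H2 type fold short loops around a zinc ion held by paired cysteines and histidines, and arrays of such loops read DNA sequence. Many mouse members also carry a KRAB domain, which binds the corepressor Trim28. Trim28 in turn brings the histone methyltransferase Setdb1 and heterochromatin proteins to retroelements and to imprinted regions, where silencing is coupled to DNA methylation. Dnmt1 copies DNA methylation at replication, and Dnmt3a and Dnmt3b place it at new sites. Mammalian promoters fall broadly into a CpG-rich class, usually free of methylation, and a CpG-poor class. Promoter windows of 300 bases, from 250 before to 50 after the gene start (RefSeq, GRCm38.p6), are printed for 3 genes, with each CpG in capitals. Zfp541 (chr7:16071595-16071894, plus strand) and Zfp472 (chr17:32965581-32965880, plus strand) are shown because they had the highest ratios of triple mutant to control. Zfp207 (chr11:80383029-80383328, plus strand) is shown because it had the highest level, with values close to each other in both libraries.
Zfp541: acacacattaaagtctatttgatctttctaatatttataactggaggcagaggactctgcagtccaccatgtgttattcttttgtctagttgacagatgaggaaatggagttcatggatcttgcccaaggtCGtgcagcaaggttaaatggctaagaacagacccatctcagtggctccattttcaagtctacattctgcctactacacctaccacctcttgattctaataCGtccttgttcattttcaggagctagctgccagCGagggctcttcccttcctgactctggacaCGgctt
Zfp472: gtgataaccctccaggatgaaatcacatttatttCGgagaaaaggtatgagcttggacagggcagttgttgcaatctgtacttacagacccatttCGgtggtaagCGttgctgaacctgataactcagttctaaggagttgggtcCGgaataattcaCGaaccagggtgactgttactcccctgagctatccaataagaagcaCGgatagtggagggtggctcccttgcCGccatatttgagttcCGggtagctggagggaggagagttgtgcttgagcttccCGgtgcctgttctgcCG
Zfp207: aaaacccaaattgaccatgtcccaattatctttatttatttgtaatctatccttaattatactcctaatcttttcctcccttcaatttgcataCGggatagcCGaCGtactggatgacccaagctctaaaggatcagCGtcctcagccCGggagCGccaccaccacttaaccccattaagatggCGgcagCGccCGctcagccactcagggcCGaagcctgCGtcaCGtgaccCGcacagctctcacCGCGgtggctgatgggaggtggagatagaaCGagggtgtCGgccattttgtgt
The windows hold 4 CpG for Zfp541, 10 for Zfp472 and 17 for Zfp207.

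The targeted genes were lower in the triple mutant library and none was absent. Dnmt1 stood at 11.6 FPKM in the triple mutant and 21.7 in the control, Dnmt3a at 56.0 and 87.4, and Dnmt3b at 0.827 and 1.03. An FPKM of 1 rested on about 56.9 fragments per kilobase in the triple mutant library and 48.5 in the control, as the spacing of the lowest values shows. Rod genes, the defining markers of most retinal cells, were abundant in both libraries: 7 of them summed to 10446 FPKM in the triple mutant and 12126 in the control. Read with the log2 ratio described below, 8 of 8 interferon response genes were at 1 or more (sums of 253 FPKM in the triple mutant and 23.0 in the control), as were 6 of 9 measured microglial genes (115 and 28.1 FPKM). Genes of cones (4 of 5, 351 and 803 FPKM), pigment epithelium (7 of 7 measured, 4.39 and 54.4 FPKM) and lens (5 of 5 measured, 2.28 and 140.3 FPKM) were at -1 or less. Of the other retinal classes, horizontal (51.8% of the control sum), ganglion (362 FPKM in the triple mutant and 560 in the control) and amacrine genes (223 and 268) summed lower in the triple mutant. Bipolar genes summed higher (771 and 543), and vascular genes stood at 105 and 108 FPKM. Mueller glia genes were mixed. Their sum was lower in the triple mutant (1198 and 1483), with Glul at 561 and 952 FPKM, but 3 of the 5 had a log2 ratio above 0, with a median of 0.15. T cell genes were under 1 FPKM in both libraries, with Cd3d listed at 0 in both. The part of these cell types in the Zfp values was not tested, and in whole tissue fewer cells of a type cannot be told apart from less RNA per cell.

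The Zfp genes lay close to the line of equal expression. The 295 genes summed to 2834 FPKM in the triple mutant library and 2832 in the control, and their median level was 6.69 and 6.83 FPKM. Differences were measured as log2 of the ratio of triple mutant to control after adding 1 FPKM to each value, so the ratio of a gene with low values is understated. The median log2 ratio was -0.02, with quartiles of -0.10 and 0.08 and a range of -0.62 to 1.18. Over all measured genes the median was -0.00, with quartiles of -0.16 and 0.15. The 12035 genes within the Zfp genes' range of mean FPKM had quartiles of -0.16 and 0.14. Within 0.25 of 0 lay 255 Zfp genes (86.4%), against 69.8% of all measured genes. This difference in spread varied with the limit. The range between the quartiles was 0.18 for the Zfp genes and 0.30 for all genes at 1 FPKM, and 0.18 and 0.28 at 5 FPKM in either library. With no limit, which brings in genes at or near 0 in both libraries, it was 0.17 and 0.15.

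**Figure D1:**
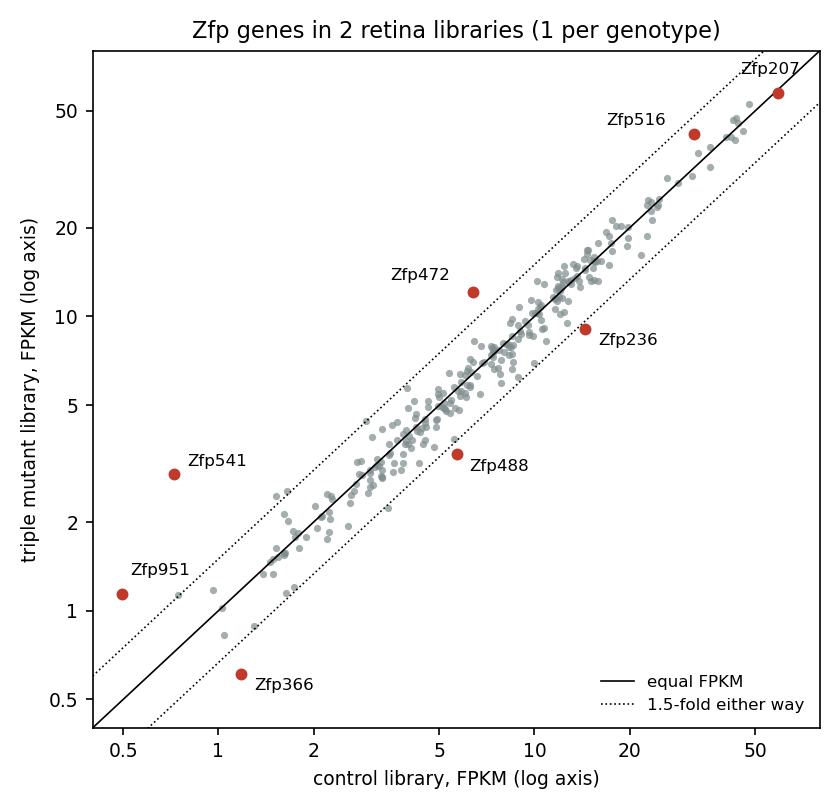
FPKM of the 295 Zfp genes in the triple mutant library (vertical, log axis) and the control library (horizontal, log axis), 1 library each, with the line of equal FPKM and lines of 1.5-fold either way. Nearly all points lie between the dotted lines, and Zfp541, at 2.92 FPKM in the triple mutant and 0.726 in the control, lies farthest above them.

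A log2 ratio of at least 1 was reached by 1 Zfp gene in the higher direction and by 0 in the lower. In the background of all measured genes, 1.85% were that much higher in the triple mutant and 0.662% that much lower. At a log2 ratio of 0.5, 3 Zfp genes were higher and 2 lower, against 5.37% and 4.76% of all measured genes. A ratio above 0 was found for 133 Zfp genes (45.1%), against 50% of all measured genes. That split depends on scaling. In the authors' second table of the same libraries, whose values are shifted by 0.02 in the triple mutant and -0.04 in the control on the log2 scale, 61.5% of the Zfp genes and 60.0% of all measured genes were above 0. Of the 295 genes, 288 had at least 1 FPKM in both libraries. The limit was met through the triple mutant library alone by Zfp541, Zfp951, Zfp455 and Zfp185, and through the control alone by Zfp697, Zfp72 and Zfp366.

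**Figure D2:**
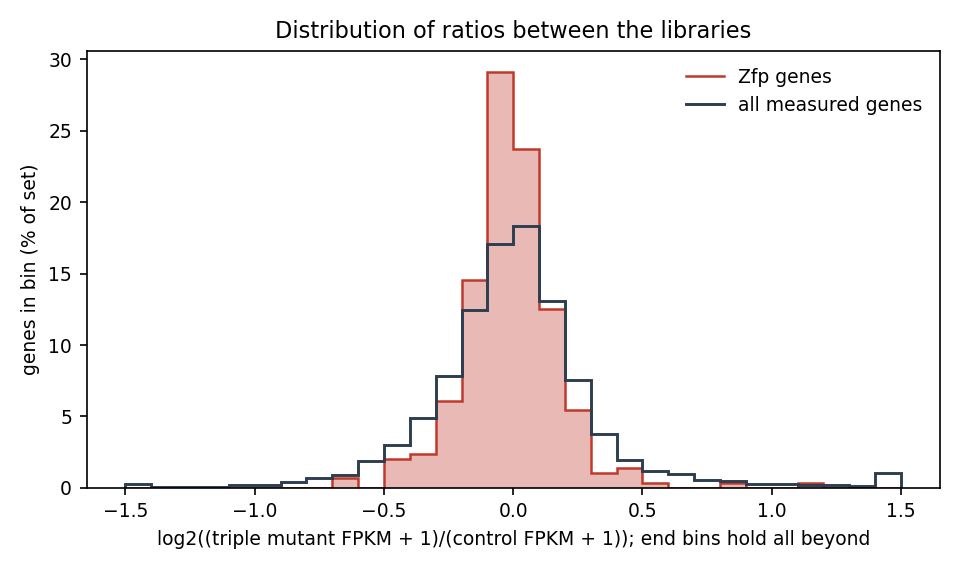
Share of genes (vertical, percent of each set) by log2 ratio of triple mutant to control (horizontal, bins of 0.1) for the 295 Zfp genes and for all 13293 measured genes. Above the limit of 1 FPKM, 86.4% of the Zfp genes lie within 0.25 of 0, against 69.8% of all measured genes. The range between the quartiles is 0.18 against 0.28 with a limit of 5 FPKM. Without a limit, which brings in genes at or near 0 in both libraries, it is 0.17 against 0.15.

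Counting error was set against a bound of 1.5-fold. For 226 Zfp genes with a single transcript, fragment numbers were recovered from the FPKM values, with medians of 1178 fragments in the triple mutant library and 1014 in the control. Their 95% intervals on the fold, which cover counting error only, lay wholly within 1.5-fold either way for 208 (92.0%), against 80.5% of all single-transcript genes. Intervals wholly beyond 1.5-fold were found for 6 (2.65%), against 7.22%. The 6 were Zfp541, Zfp472 and Zfp951, which were higher in the triple mutant, and Zfp236, Zfp488 and Zfp366, which were lower. Of these, Zfp541 and Zfp951 met the limit of 1 FPKM through the triple mutant library alone, and Zfp366 through the control alone. Each of those was thus kept by the library in which it was higher.

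Zfp541 (chr7:16061814-16096334, plus strand, GRCm38) had the highest ratio. The mouse gene is known from the testis, where its protein acts with histone deacetylases in meiosis. It stood at 2.92 FPKM in the triple mutant library and 0.726 in the control, about 730 and 155 fragments, which is a 4.02-fold ratio (3.38 to 4.81) and a log2 ratio of 1.18. The predicted protein has 5 C2H2 fingers in 1363 residues and no KRAB motif, and none of its 50-base windows occurs in another gene. The window printed above is CpG-poor, with a GC content of 44.7%. It lies at the RefSeq start, near the start of the deposited transcript, but 10031 bases inside the GENCODE gene, so the 2 annotations place the gene start differently. In the second table it stood at 2.96 FPKM in the triple mutant and 0.705 in the control.

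Zfp472 (chr17:32965814-32979233, plus strand) was next. It encodes a KRAB protein with 12 fingers and had 12.1 FPKM in the triple mutant and 6.41 in the control, 1.89-fold (1.72 to 2.07). Of the 7 other Zfp genes in its stretch of chromosome 17 (chr17:32765496-33110705), the highest ratio was that of Zfp952, with 9.84 FPKM in the triple mutant and 8.48 in the control. Zfp951, another KRAB gene, on chromosome 5, was low in both libraries, at 1.14 FPKM in the triple mutant and 0.496 in the control, 2.31-fold (1.73 to 3.11). Its log2 ratio is 0.52 because of the added 1 FPKM.

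The remaining 9 of the 12 highest ratios lay between 0.27 and 0.46 on the log2 scale. Zfp217, a corepressor partner studied in human breast cancer as ZNF217, had 2.46 FPKM in the triple mutant and 1.53 in the control. Zfp36 encodes tristetraprolin, a CCCH protein that speeds the decay of AU-rich cytokine messages, and had 4.40 and 2.94 FPKM, with an interval on the fold of 1.32 to 1.70. Zfp703, a transcriptional corepressor of the Nlz family, had 5.69 FPKM in the triple mutant and 3.96 in the control. Among these genes Zfp516 stood out for its level. It is known in the mouse as an activator of Ucp1 in brown fat, and had 41.9 FPKM in the triple mutant and 32.0 in the control. The others were Zfp184 (2.55 and 1.65 FPKM), Zfp688 (13.2 and 10.2), Zfp839 (8.25 and 6.43), Zfp455 (1.13 and 0.743) and Zfp39 (3.89 and 3.06), with the triple mutant first.

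Zfp236 had the lowest ratio. It lies on chromosome 18, encodes 30 fingers and had 9.09 FPKM in the triple mutant and 14.5 in the control, 62.7% of the control level (60.4 to 65.0). Zfp488, which acts with Olig2 in the oligodendrocyte lineage of the mouse, had 3.40 FPKM in the triple mutant and 5.67 in the control, 60.0% (54.8 to 65.7). Of its 50-base windows, 15.0% also occur in another annotated gene, 4930533N22Rik, so its fragments may be shared. Zfp366 encodes a protein known from dendritic cells as DC-SCRIPT, and was at 0.611 FPKM in the triple mutant and 1.18 in the control, 51.7% (43.4 to 61.3). All 3 lay within a log2 ratio of 1.

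The other 9 of the 12 lowest ratios ran from -0.46 to -0.35. Zfp618, whose human counterpart binds UHRF2, a reader of hydroxymethylcytosine, had 2.23 FPKM in the triple mutant and 3.45 in the control. Zfp369 had 6.96 and 9.97 FPKM, and Zfp641 had 6.22 and 8.85, triple mutant first. Zfp467 was the most abundant of them, with 16.2 FPKM in the triple mutant and 21.8 in the control. The rest were Zfp941 (3.83 and 5.58 FPKM), Zfp692 (9.48 and 12.6), Zfp329 (8.26 and 10.9), Zfp398 (5.94 and 7.87) and Zfp169 (3.17 and 4.32), again with the triple mutant first.

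**Figure D3:**
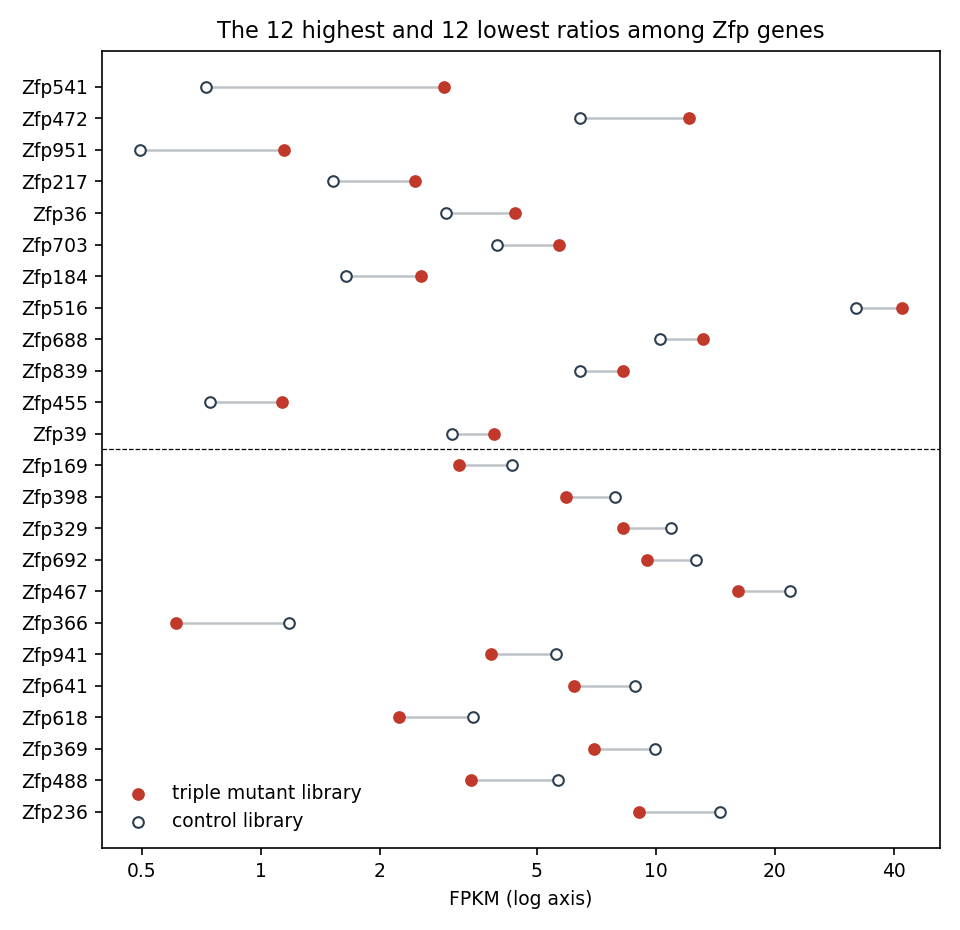
FPKM (horizontal, log axis) of the 12 Zfp genes with the highest and the 12 with the lowest log2 ratio, with the triple mutant library as a filled point and the control library as an open point. Zfp541 has the widest gap, 2.92 FPKM in the triple mutant against 0.726 in the control.

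Of the 10 most abundant Zfp genes, Zfp516 differed by 1.31-fold, and the other 9 by less than 1.2-fold. Zfp207 encodes a microtubule-binding protein of the spindle (BuGZ) and had 57.7 FPKM in the triple mutant and 58.9 in the control, summed over 5 transcripts. Zfp445, a KRAB protein that protects imprinted methylation, had 52.9 and 47.8 FPKM, 1.11-fold (1.08 to 1.13). Zfp428 (47.4 and 43.6), Zfp365 (46.5 and 42.5), Zfp219 (45.5 and 44.3), Zfp444 (42.8 and 45.9), Zfp787 (40.9 and 41.9), Zfp91 (40.8 and 40.4) and Zfp664 (39.8 and 43.1) followed, with the triple mutant first. Across levels, the 111 Zfp genes with a mean under 5 FPKM had a log2 standard deviation of 0.22, the 159 between 5 and 20 FPKM 0.17, and the 25 at 20 FPKM or more 0.13.

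At the limit of 1 FPKM, Zfp558 lay just inside, with 1.02 FPKM in the triple mutant and 1.03 in the control, as did Zfp697 (0.827 and 1.04), Zfp455 and Zfp951. Just outside lay Zfp300 (0.983 and 0.999), Zfp389 (0.551 and 0.986), Zfp781 (0.983 and 0.902) and Zfp429 (0.981 and 0.848), each with the triple mutant first. The 37 genes under the limit reached a log2 ratio of at most 0.16 in the higher direction (Zfp934) and -0.36 in the lower (Zfp389). With both values under 1 FPKM, the added 1 FPKM keeps such a ratio short of 1 either way. Their small ratios therefore do not show that the folds were small.

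KRAB genes known to guard imprints or retroelements were followed as a list of 12, of which 7 were measured. Of these 7, 0 reached a log2 ratio of 0.5, against 10.1% of all measured genes either way. Zfp57, which binds methylated imprint control regions, had 3.81 FPKM in the triple mutant and 4.51 in the control. Zfp568, which represses a placental Igf2 transcript in the mouse, had 3.12 and 3.17 FPKM. Zfp809, which binds the primer site of murine leukaemia virus, had 5.47 and 5.14 FPKM. These genes thus stood on both sides of 0, with a list median of -0.02. Zfp932, a repressor of endogenous retroviruses, was the lowest, with 6.65 FPKM in the triple mutant and 8.51 in the control, but 55.5% of its 50-base windows also occur in Gm15446. Zfp708 (1.57 and 1.63 FPKM) and Zfp961 (6.32 and 6.05) completed the measured genes.

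Genes whose products bind RNA or ribosomes numbered 8, all measured, with a median of -0.01. Of the 8, 0 were past 0.5, against 10.1% of all measured genes either way. Besides Zfp36 and Zfp207, Zfp598, a ubiquitin ligase that marks collided ribosomes, had 22.7 FPKM in the triple mutant and 23.3 in the control, 97.5% (93.3 to 102). Zfp622, a factor of the large ribosomal subunit's maturation, had 14.6 and 13.6 FPKM. Zfp326, part of the DBIRD complex that couples transcription to splicing, had 14.9 and 12.4 FPKM, and Zfp346, which binds double-stranded RNA, 14.6 and 14.4. Zfp106 (32.2 and 35.8 FPKM) and Zfp871 (23.6 and 24.5) were slightly lower in the triple mutant.

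Of 13 genes listed for roles in the nervous system or eye, 11 were found by symbol and measured, with a median of -0.06. Among these 11, 1, Zfp488, was past 0.5, against 10.1% of all measured genes either way. Zfp238 and Zfp24 were not found under those symbols. Zfp503, needed for closure of the optic fissure, had 8.68 FPKM in the triple mutant and 9.64 in the control. Zfp513, whose human counterpart is mutated in a retinitis pigmentosa family, had 20.1 and 19.7 FPKM, although its exons overlap Snx17 on the opposite strand. Zfp644, linked to myopia through human ZNF644, had 14.7 and 15.3 FPKM. Of the rest, Zfp703 is given above, and Zfp462 had 18.8 FPKM in the triple mutant and 22.7 in the control, 82.6% (80.5 to 84.8). Zfp423 (7.18 and 6.23 FPKM), Zfp536 (18.4 and 19.8) and Zfp335 (10.6 and 11.6) were closer to equal.

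A mixed list of transcription factors and other regulators gave 11 genes of 12 found by symbol and measured, with a median of -0.00. Of these, 0 were past 0.5, against 10.1% of all measured genes either way. Zfp161 was not found under that symbol. Zfp143, an activator of many housekeeping and small nuclear RNA promoters, had 6.62 FPKM in the triple mutant and 7.44 in the control. Zfp148 had 13.5 FPKM in both libraries, 99.9% (96.6 to 103). Zfp281, a repressor in pluripotent cells, had 21.2 and 23.5 FPKM. Zfp410, known for activating Chd4, had 13.3 FPKM in the triple mutant and 13.1 in the control, and Chd4 itself had 84.1 and 74.5. Of 7 genes listed as known from testis or early germ cells, 3 were found by symbol and measured. Of these 3, only Zfp541 had a ratio above 0, against 50% of all measured genes. It was also past 1, against 1.85% of all measured genes in that direction. Zfp541 met the limit of 1 FPKM through the triple mutant library alone, so it was kept by the library in which it was higher. Zfp37 stood at 85.1% of the control (78.1 to 92.6), and Zfp59 had 3.77 FPKM in the triple mutant and 3.91 in the control. Zfp29 was not found under that symbol. Zfp352 and Zfp819 were listed at 0 in at least 1 library, and Zfp296 was under the limit, at 0.749 and 0.587 FPKM.

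A KRAB A-box motif was found in 128 of the 292 Zfp genes with a coding sequence (43.8%). Their median log2 ratio was -0.02, with quartiles of -0.10 and 0.07, and it was -0.01 in the 164 without the motif, with quartiles of -0.11 and 0.08. The medians turned positive in both classes in the second table, at 0.02 and 0.05. Genes with the motif were expressed at a lower level, with a median of 4.24 FPKM in the triple mutant and 4.40 in the control. The medians were 10.4 and 10.7 in the genes without it. The pattern is strict, and with 1 mismatch allowed it was found in 157 genes. The class without the motif may therefore hold some KRAB genes. Finger number had a median of 10.5 and reached 36 in Zfp142. The 9 genes with no C2H2 pattern, among them Zfp36, Zfp703, Zfp839 and Zfp503, had a median of 0.15. Of the 9, 7 were above 0, against 45.1% of the Zfp genes and 50% of all measured genes, a split that depends on scaling. The highest was Zfp36, at 0.45, and 0 of the 9 were past 0.5, against 10.1% of all measured genes either way.

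The partners through which KRAB proteins act were also near level. Of 23 listed, 20 were measured, and the median was 0.09. A ratio above 0 was found for 14 of the 20 (70%), against 50% of all measured genes. A log2 ratio of 1 was reached by 0 of the 20, against 2.51% of all measured genes either way. Past 0.5 the share of all measured genes was 10.1%. Trim28 had 76.6 FPKM in the triple mutant and 68.2 in the control, and Setdb1 14.0 and 13.2. Among heterochromatin proteins, Cbx5 had 16.2 FPKM in the triple mutant and 20.8 in the control, and Cbx1 31.4 in both. Cbx3 was higher in the triple mutant, with 2.78 FPKM against 2.03 in the control, 1.37-fold (1.13 to 1.68). Hdac1, a histone deacetylase, was the 1 gene past 0.5, with 8.78 FPKM in the triple mutant and 4.58 in the control, 1.92-fold (1.70 to 2.16), a log2 ratio of 0.81. Its close relative Hdac2 was 1.10-fold higher (1.06 to 1.15). Daxx, a histone H3.3 chaperone, had a log2 ratio of 0.37, and its partner Atrx one of -0.08.

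RefSeq promoter windows were matched for 243 Zfp genes. By observed over expected CpG of at least 0.6 with a GC content of at least 50%, 135 (55.6%) were CpG-rich, against 70.1% of 9824 measured genes and 33.5% of all 32851 windows. Zfp genes with the KRAB motif were CpG-rich in 35.7% of cases, against 72.9% of those without the motif. Among all measured genes, 5.65% of those with a CpG-poor promoter lay past 1 on the log2 scale in either direction, against 1% of those with a CpG-rich promoter. Of the 108 Zfp genes with a CpG-poor promoter, 1 lay past it, Zfp541. The standard deviation of the log2 ratio was 0.21 in these 108 Zfp genes and 0.61 in all measured CpG-poor genes. The RefSeq start behind the window was within 1 kb of the GENCODE gene start for 217 of the 243 Zfp genes (89.3%), Zfp541 not among them. The 3 highest Zfp genes all had CpG-poor windows at the RefSeq start, but of these 3, Zfp541 and Zfp951 met the limit of 1 FPKM through the triple mutant library alone. The median was -0.02 for the CpG-poor and -0.01 for the 135 CpG-rich Zfp genes.

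**Figure D4:**
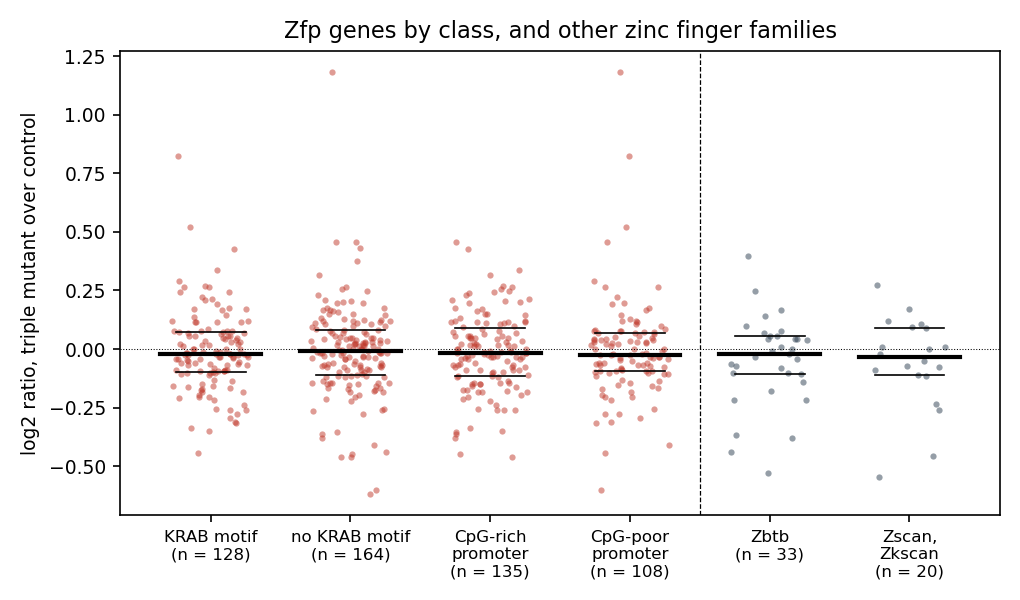
Log2 ratio of triple mutant to control (vertical) for each Zfp gene by KRAB motif and promoter class, and for the Zbtb and the Zscan and Zkscan genes; bars mark the median and thin lines the quartiles. All medians lie between -0.04 and -0.01, and 3 points above 0.5 are Zfp541, Zfp472 and Zfp951, each drawn in 2 classes.

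Short motifs were searched on both strands of the same windows, as a description only. The ETS core CCGGAA was in 38.7% of Zfp windows, 27.8% of those of measured genes and 14.9% of all windows, and the Zfp472 window holds it. The E-box CACGTG was in 7.82%, 10.3% and 7.15%, and the Zfp207 window holds it. The NRF1-type motif was in 10.3%, 10.4% and 4.60%, and the YY1-type motif ATGGCGGC, in both the Zfp472 and Zfp207 windows, was in 7.41%, 5.13% and 2.24%. The Zfp541 window holds none of the 4. Genes with the ETS core had a median log2 ratio of -0.00 and those without it -0.03.

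Zfp genes are known for standing in tandem arrays, and 127 of the 295 lay in 22 runs of at least 3 with under 200 kb between starts. The KRAB motif was found in 63.0% of the genes in runs and 28.6% of the others. Medians were -0.02 in runs and -0.01 outside. The largest run (chr7:29768552-30169750) holds 15 genes, which summed to 112.6 FPKM in the triple mutant and 120.6 in the control. Its median was -0.08, and 3 of its 15 genes (20%) were above 0, against 45.1% of the Zfp genes and 50% of all measured genes. Within this run the lowest was Zfp382, with 3.59 FPKM in the triple mutant and 4.80 in the control. The run of 11 KRAB genes on chromosome 13 (chr13:67038596-67827002) had a median of -0.04, and the run of 10 on chromosome 17 (chr17:21383748-22071168) one of 0.06. Across runs the medians went from -0.22 to 0.09.

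**Figure D5:**
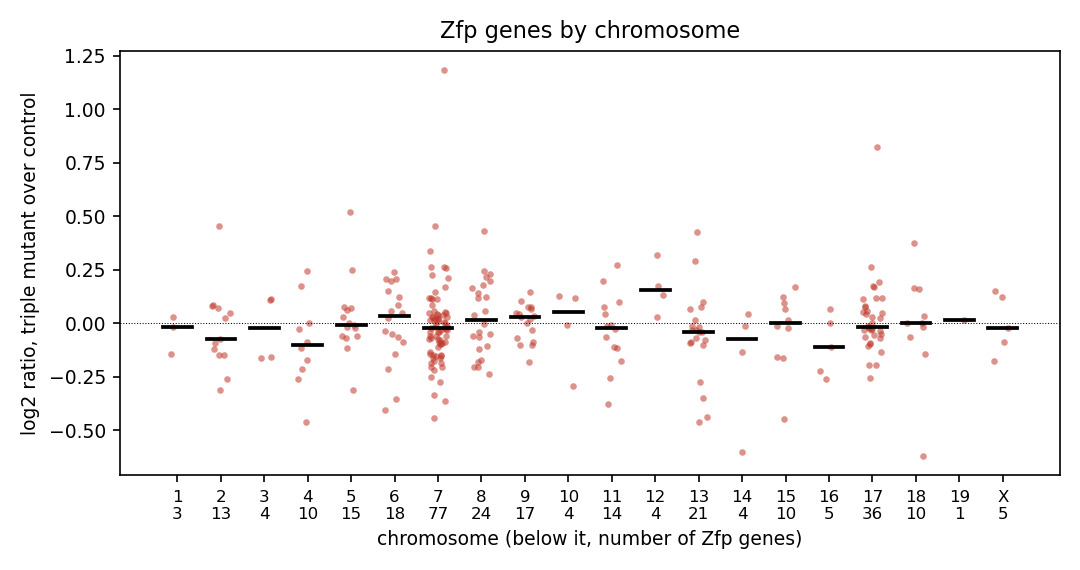
Log2 ratio of triple mutant to control (vertical) of each Zfp gene by chromosome (horizontal, with the number of Zfp genes below each), with a bar at each median. The medians of the 20 chromosomes lie between -0.11 and 0.15, and Zfp541 on chromosome 7 and Zfp472 on chromosome 17 stand clear of their neighbours.

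Transcript use was compared in 40 Zfp genes with several transcripts and at least 5 FPKM in both libraries. A difference in share of at least 30 percentage points was found for 1 of the 40, against 0.906% of 2427 genes overall. It was Zfp2, whose transcript NM_001044700 made up 34.1% of the gene in the triple mutant library and 0.583% in the control, at 2.28 and 0.0360 FPKM. The gene as a whole had 6.69 FPKM in the triple mutant and 6.17 in the control. The authors' second table gave other estimates for this transcript, 0.818 FPKM in the triple mutant and 0 in the control, and other sums for the gene, 4.88 and 3.77 FPKM. In that table the 1 gene past 30 points was Zfp27. Its transcript NM_001037707 made up 60.7% in the triple mutant and 84.9% in the control in the first table, and 56.0% and 89.1% in the second. Smaller differences were seen in Zfp467 (16.5 points), Zfp869 (-14.7), Zfp809 (14.2) and Zfp821 (11.7).

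Other zinc finger families were close to the Zfp genes. The 33 measured Zbtb genes, whose proteins join fingers to a BTB domain, had a median log2 ratio of -0.02, and the 20 Zscan and Zkscan genes, whose proteins carry a SCAN domain, one of -0.04. Neither held a gene past 1 on the log2 scale, against 2.51% of all measured genes either way. Their lowest ratios were those of Zbtb37, with 2.61 FPKM in the triple mutant and 4.20 in the control, and Zkscan16, with 2.40 and 3.95.

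Reads of near-identical genes limit some values. At least 5% of the 50-base windows of 37 Zfp genes occur in another gene, led by Zfp433 (92.6%), Zfp960 (74.0%) and Zfp97 (73.4%), the last 2 of which share windows with each other. Without these 37 genes the median log2 ratio was -0.01. For 22 Zfp genes an exon overlaps a measured gene on the opposite strand, Zfp219 and Arhgef40 among them, and the sources used here do not say whether counting was stranded. None of the 394 Zfp transcripts (0) was called significant in the authors' deposited table, against 0.225% of all 30608 transcripts, and the lowest p-value there was 0.0054, for Zfp541, with a q-value of 0.476.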

How the data were processed

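Total RNA was taken from retinas at postnatal day 15 and made into Illumina libraries by a commercial provider, per the labels' protocols. TopHat2 2.0.8, Cuffdiff 2.1.1 and the build mm10 are named in the submitters' processing notes, and the sources used here do not state the annotation or read layout. The deposited tables hold FPKM per RefSeq transcript in each library, per the file headers. They also hold the authors' log2 fold change, test score, p-value and q-value, per the file headers, of which only the p-value, q-value and significance call are quoted, as the authors' own. The 2 samples were grouped by genotype label.

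FPKM was summed by gene symbol in the table with symbols (23356 symbols), and log2 ratios used a pseudocount of 1 FPKM. The design assumed a gene-level table. With 1 library per group no test was run. The Zfp genes and all lists were chosen with earlier results of these data known. Listed genes were matched by symbol alone, so a gene deposited under another symbol was not counted as measured. Most genes were named by a rule. It took the 12 highest and 12 lowest ratios, the 10 highest levels and 4 genes on each side of the limit. It also took the role lists and 6 isoform differences. Of the role lists, Zfp521, Zfp131, Zfp704 and Zfp64 enter only the lists' medians and counts. Hdac1, other KRAB partners, genes of tandem runs and genes of other families were named after their values were seen. So were Zfp142, Zfp433, Zfp960, Zfp97, Zfp934, Zfp185, Zfp72 and Zfp120, which lie outside the rule.

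Depth came from the steps between low FPKM values: 578 of 579 low values in the triple mutant library and 581 of 582 in the control were whole multiples of a fragment within 10% of a step. Intervals are exact conditional binomial intervals (Clopper-Pearson) on those fragments and cover counting error only. A floor of 3 fragments over 2 kb is 0.0288 FPKM in the triple mutant and 0.0336 in the control. Only the log2 ratio and the intervals were tested on simulated data. Those fragments were drawn with counting error alone, as the intervals assume. The recovery of fragments, the motif searches, the shared windows and the isoform shares were not tested in this way.

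Coordinates, coding sequences and shared 50-base windows are from GENCODE M21 (GRCm38), and promoters from RefSeq (GRCm38.p6). A C2H2 finger was cysteine, 2 to 4 residues, cysteine, 12 residues, histidine, 3 to 5 residues, histidine. The KRAB A-box was a leucine, then tyrosine, phenylalanine or histidine, any pair of residues, valine, then methionine, isoleucine, leucine or threonine, any residue, glutamate, then asparagine or threonine. Python 3.11.15, pandas 2.3.3, numpy 2.4.6, scipy 1.17.1 and matplotlib 3.10.9 were used.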

Additional observations from a re-analysis of the deposited data

How the results depend on the processing

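The count of 1 Zfp gene at least 1 higher on the log2 scale depended on the pseudocount and the filter. It was 2 with a pseudocount of 0.1 FPKM, where Zfp951 reached 1.06, and 0 with a pseudocount of 5 FPKM, where Zfp541 stood at 0.47. It was 0 among the 190 Zfp genes with at least 5 FPKM in either library, a limit that leaves Zfp541 out. The other alternatives (no filter, the second table, the highest transcript, centring on the median of all genes, symbols at several loci left out) gave 1. The count in the lower direction was 0 under all of these. The median of the Zfp genes ran from -0.02 to 0.03, with the highest in the second table, and that of the KRAB partners from 0.07 to 0.15. The count of isoform differences was 2 with at least 2 FPKM, where Zfp120 joined, and 1 in the second table, an alternative chosen after seeing the data. With no filter, which brings in genes at or near 0 in both libraries, the range between the quartiles was 0.17 for the Zfp genes and 0.15 for all genes. That is the opposite order to that with the filter. With at least 5 FPKM in either library the order was kept, at 0.18 and 0.28. With 1 mismatch allowed the KRAB motif was found in 157 genes.

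With 1 library per genotype, differences between animals, cell composition and preparation cannot be told apart from genotype, and fragment counts limit only the counting error. No paired analysis was possible because each genotype has 1 library.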
